A study of Homo sapiens with 2 samples.

Results

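The YPEL (yippee-like) genes YPEL1, YPEL2, YPEL3, YPEL4 and YPEL5 were examined for FLAG peaks in U87MG, a human glioblastoma cell line. In this study the endogenous transcription factor FOXO3 was given a FLAG tag by genome editing, so that an antibody against the tag could recover the DNA bound to it (CETCh-seq). The series has 2 chromatin samples, a FLAG immunoprecipitation and an input. LY294002, which inhibits phosphoinositide 3-kinase, had been added to the cells of both. Both carry the genotype label WT, and the labels do not say whether the input cells were tagged or whether the tagged cells were a single clone. No group without LY294002 was analysed here, and the peak list comes from 1 library, so no difference between conditions was tested. Members were chosen by the position of peak summits: a gene had a peak where a summit lay in a fixed window around it (hg19), and a gene without one counted as a member with no called peak. By this rule 4 of the 5 genes had a peak. Their windows held 7 of the 9717 deposited peaks, all 7 among the 9670 on chromosomes 1 to 22 and X. The windows were fixed with the peaks known, so these counts and the values below are a description.

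YPEL genes encode small, highly conserved zinc-binding proteins named after the Drosophila protein Yippee. YPEL1 to YPEL4 are closely alike in sequence and YPEL5 is the most distant of the family. YPEL3 is known as a growth-restraining gene that p53 can induce and that can drive cells into senescence. YPEL5 is a subunit of the CTLH ubiquitin ligase complex. FOXO3 is a forkhead factor that leaves the nucleus while phosphoinositide 3-kinase and AKT are active. It recognises the letters TGTTTAC, which read GTAAACA on the other strand.

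The promoters of YPEL2, YPEL3, YPEL4 and YPEL5 are shown because the forkhead letters occur in that of YPEL3 and in none of the others. YPEL1 has no entry in the promoter table used. Each line runs 5′ to 3′ on the strand of the gene, from 250 bases before its start to 20 bases after it (RefSeq, GRCh38.p14). Capitals mark matches on either strand to TGTTTAC (forkhead, extended to TTGTTTAC where the next base fits), TGTTTTG (a related forkhead core), TGANTCA (AP-1), CCAAT (NF-Y) and GGGCGG (SP and KLF factors).
YPEL3, chr16:30096194-30096463, minus strand: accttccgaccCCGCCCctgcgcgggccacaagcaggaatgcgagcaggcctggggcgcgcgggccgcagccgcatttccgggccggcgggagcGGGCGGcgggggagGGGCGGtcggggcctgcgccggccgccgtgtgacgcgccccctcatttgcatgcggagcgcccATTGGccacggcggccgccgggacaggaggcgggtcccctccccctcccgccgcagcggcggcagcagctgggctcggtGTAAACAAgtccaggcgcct
YPEL2, chr17:59331405-59331674, plus strand: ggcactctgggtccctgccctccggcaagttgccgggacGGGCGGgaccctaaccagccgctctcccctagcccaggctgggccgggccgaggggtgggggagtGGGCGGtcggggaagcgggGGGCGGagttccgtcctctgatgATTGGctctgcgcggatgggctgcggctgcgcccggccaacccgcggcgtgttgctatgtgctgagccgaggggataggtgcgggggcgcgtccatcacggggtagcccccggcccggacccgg
YPEL4, chr11:57649893-57650162, minus strand: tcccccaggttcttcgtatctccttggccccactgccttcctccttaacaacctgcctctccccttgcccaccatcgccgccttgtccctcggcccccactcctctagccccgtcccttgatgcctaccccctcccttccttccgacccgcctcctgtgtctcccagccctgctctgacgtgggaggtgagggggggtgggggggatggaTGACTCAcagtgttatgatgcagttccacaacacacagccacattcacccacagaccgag
YPEL5, chr2:30146757-30147026, plus strand: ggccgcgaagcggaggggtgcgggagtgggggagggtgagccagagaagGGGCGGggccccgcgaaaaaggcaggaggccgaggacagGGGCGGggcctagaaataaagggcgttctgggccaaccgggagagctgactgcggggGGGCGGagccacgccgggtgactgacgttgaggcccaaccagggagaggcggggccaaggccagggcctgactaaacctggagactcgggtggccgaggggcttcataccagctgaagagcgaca

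In YPEL3 the forkhead letters fill bases 1 to 7 counted from the RefSeq start, so the start base itself is the first letter of the match. They lie on the strand opposite to the gene. The 26 bases around them, chr16:30096197-30096222 (GRCh38.p14), read as follows on both strands, with the match in capitals.
Strand of YPEL3: gggctcggtGTAAACAagtccaggcg
Opposite strand: cgcctggactTGTTTACaccgagccc

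TGTTTAC was found in 1202 of 35116 promoters of 300 bases (3.42%), and it covered the start base in 32 of them (0.0911%). YPEL3 is therefore in a small minority of promoters by the first count. The count over the start base was not planned and follows the place of the YPEL3 match itself, so nothing is read from its small size. The other letters were more common. GGGCGG occurred in 45.0% of all promoters and in those of YPEL2, YPEL3 and YPEL5, with 3 matches in each. CCAAT occurred in 34.6% of all promoters, in YPEL2 at bases 104 to 100 before the start and in YPEL3 at bases 79 to 75 before it. TGANTCA occurred in 7.71% of all promoters and in YPEL4, at bases 40 to 34 before the start. TGTTTTG, present in 4.92% of all promoters, was found in none of the 4. A match to letters is a description and not a measured site of binding. The YPEL3 promoter was also the richest of the 4 in G and C, with 79% against 75% in YPEL2, 70% in YPEL5 and 62.3% in YPEL4, where the median of all promoters was 58.7%. It held 42 CG pairs in 300 bases, against 33 in YPEL2, 25 in YPEL5 and 10 in YPEL4, with a median of 14 over all promoters.

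**Figure D1:**
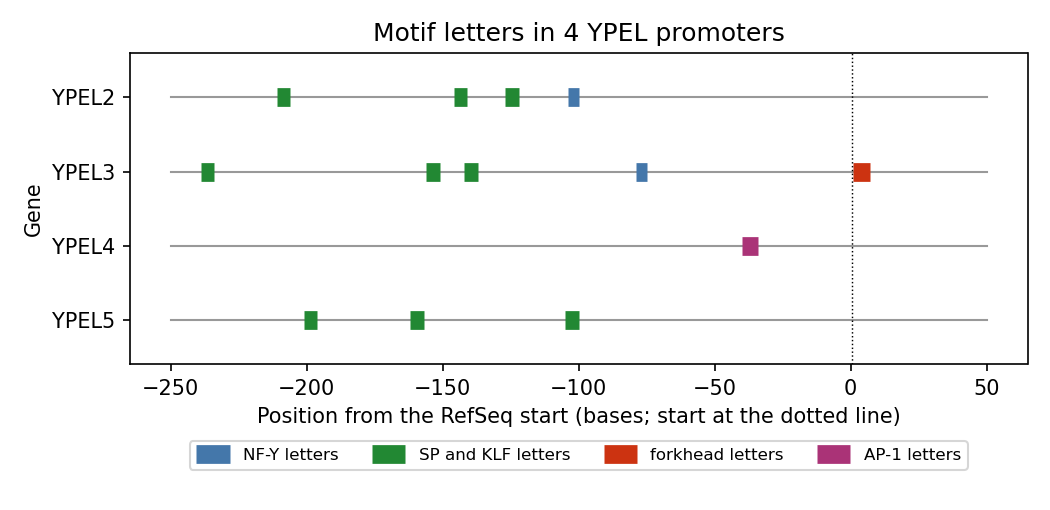
Positions of motif letters in the RefSeq promoters of YPEL2, YPEL3, YPEL4 and YPEL5, in bases from the start of each gene; each coloured block is a match on either strand. The forkhead block is seen in YPEL3 alone of the 4, at bases 1 to 7, and YPEL5 holds the SP and KLF letters only.

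YPEL3 had the strongest peak of the family. It lay on chromosome 16 from 30107365 to 30107691 (hg19), with its summit at 30107543. At the summit 192 ChIP tags were stacked (the pileup), over a background of 7.43 tags estimated by the caller. The deposited fold enrichment, which is the pileup plus 1 over the background plus 1, was 22.9, with an exact 95% Poisson interval of 19.8 to 26.4. This interval, like all those below, covers counting error only, and sequenced tags are not independent molecules. The −log10 q was 187.5. By fold this peak ranked 5 of 9670, by −log10 q it ranked 9 and by pileup it ranked 29. It was the highest by fold of the 188 peaks on chromosome 16.

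The summit of the YPEL3 peak fell at the start of the gene. The 5′ end of YPEL3 used in the rule is at about 30107537 on the minus strand of hg19, which puts the summit 6 bp upstream of it. The peak reached 154 bp upstream and 172 bp downstream of that position. The forkhead letters shown above begin at the RefSeq start of the gene in GRCh38.p14. Since the 5′ end in the rule is approximate and belongs to another build, the distance from the summit to these letters was not measured. The same promoter lies beside YPEL3-DT, a divergent long non-coding RNA whose RefSeq start is 217 bases from that of YPEL3 on the opposite strand. A peak list gives no means to assign the peak to either gene.

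The YPEL3 peak was narrow for its fold. It was 327 bp wide, with 178 bp from its start to its summit and 148 bp from its summit to its end. The 25 peaks of highest fold had a median width of 682 bp, with quartiles of 607 and 734 bp. Of the 32 peaks with a fold of 15 or more, 1 was narrower, a peak of 318 bp on chromosome 15 from 99191708 to 99192025. Of the 219 peaks with a fold of 10 or more, 5 were narrower. Measured by tags the width was less unusual: of the 55 peaks with a pileup of 150 tags or more, 7 were narrower, down to 153 bp. Taken from the other side, 6952 of the 9670 peaks (71.9%) were no wider than 327 bp, and YPEL3 had the highest fold of these. The next among them was the chromosome 15 peak, with a fold of 15.9 (13.05 to 19.3), and its interval did not overlap that of YPEL3. The peaks ranked directly above and below YPEL3 by fold were wider. The peak above, on chromosome 5 from 142735252 to 142735933, was 682 bp wide with 109 tags and a fold of 23.6 (19.5 to 28.5). The peak below, on chromosome 7 from 27702403 to 27703155, was 753 bp wide with 236 tags and a fold of 22.6 (19.8 to 25.6). Their intervals overlapped that of YPEL3, so the order of these 3 folds is within counting error.

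**Figure D2:**
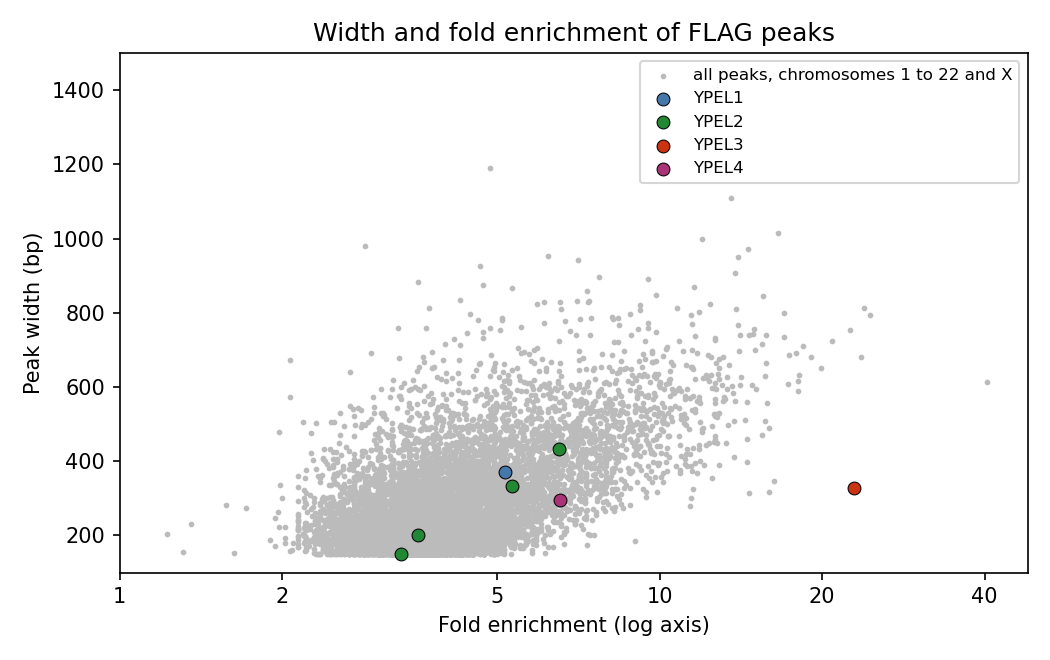
Peak width in bp against fold enrichment (log axis) for the 9670 FLAG peaks on chromosomes 1 to 22 and X in grey, with the 7 YPEL peaks in colour. The YPEL3 peak stands apart at a fold of 22.9 and a width of 327 bp, below the other peaks of fold 20 or more, while the other YPEL peaks lie within the grey cloud.

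YPEL4 had a single peak, on chromosome 11 from 57424925 to 57425219. It was 295 bp wide with 84 tags over a background of 12.0, the highest background among the YPEL peaks. Its fold was 6.53 (5.23 to 8.07) and its −log10 q was 37.0. By fold it ranked 937 of 9670 and by pileup 265. The summit, at 57425060, lay 2.94 kb inside the nearer edge of the 26 kb window, so it was the YPEL peak closest to a window edge. That edge is the one at higher positions, the side of the start of YPEL4, which is on the minus strand. In the RefSeq gene order the next protein-coding gene on that side is CLP1, an RNA kinase of tRNA splicing and mRNA 3′ processing. An annotation of hg19 was not used here, so which of these starts lies nearer to the summit was not measured.

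YPEL1, whose product is known for changing fibroblast shape toward an epithelial form, also had a single peak. It lay on chromosome 22 from 22064240 to 22064611 and was 372 bp wide, with its summit at 22064402. It held 62 tags over a background of 11.2, giving a fold of 5.18 (3.99 to 6.61) and a −log10 q of 21.7. By fold it ranked 1887 of 9670, and 23 of the 92 peaks on chromosome 22. The summit lay 23.4 kb from the nearer edge of the 60 kb window. Outside the window the nearest summits were 250.1 kb before it and 1547 kb after it, so the YPEL1 peak stood alone over a stretch of 1857 kb.

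YPEL2 had 4 peaks within 41.9 kb on chromosome 17. In order of position, the first ran from 57409239 to 57409570 and had 58 tags over a background of 10.05, for a fold of 5.34 (4.07 to 6.87). The second, from 57435552 to 57435701, was weaker, with 24 tags on a background of 6.52 and a fold of 3.32 (2.18 to 4.88). The third, from 57439741 to 57439941, was similar, with 31 tags on 7.96 and a fold of 3.57 (2.46 to 5.02). The fourth, from 57451140 to 57451572, was the strongest of the 4, and its 48 tags on 6.54 gave a fold of 6.50 (4.83 to 8.58). The outer peaks thus had the higher folds and the inner pair the lower ones. Their −log10 q values were 20.9, 4.07, 6.26 and 21.3. The intervals of all 4 folds overlapped, although the upper bound of the second (4.88) only just passed the lower bound of the fourth (4.83).

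Spacing and width set the YPEL2 peaks apart from one another. The summits were 26.3 kb, 4.15 kb and 11.5 kb apart. The first and the fourth were 332 and 433 bp wide, whereas the second was 150 bp, the smallest width in the list and shared by 642 peaks (6.64%), and the third was 201 bp. The summit of the second peak lay 18 bp from its end, while those of the others were at least 94 bp from both edges. The first summit lay 10.4 kb inside the start of the 91 kb window. Beyond this window no hg19 position of YPEL2 or of its start was used, so which of the peaks, if any, lies at its start was not measured.

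**Figure D3:**
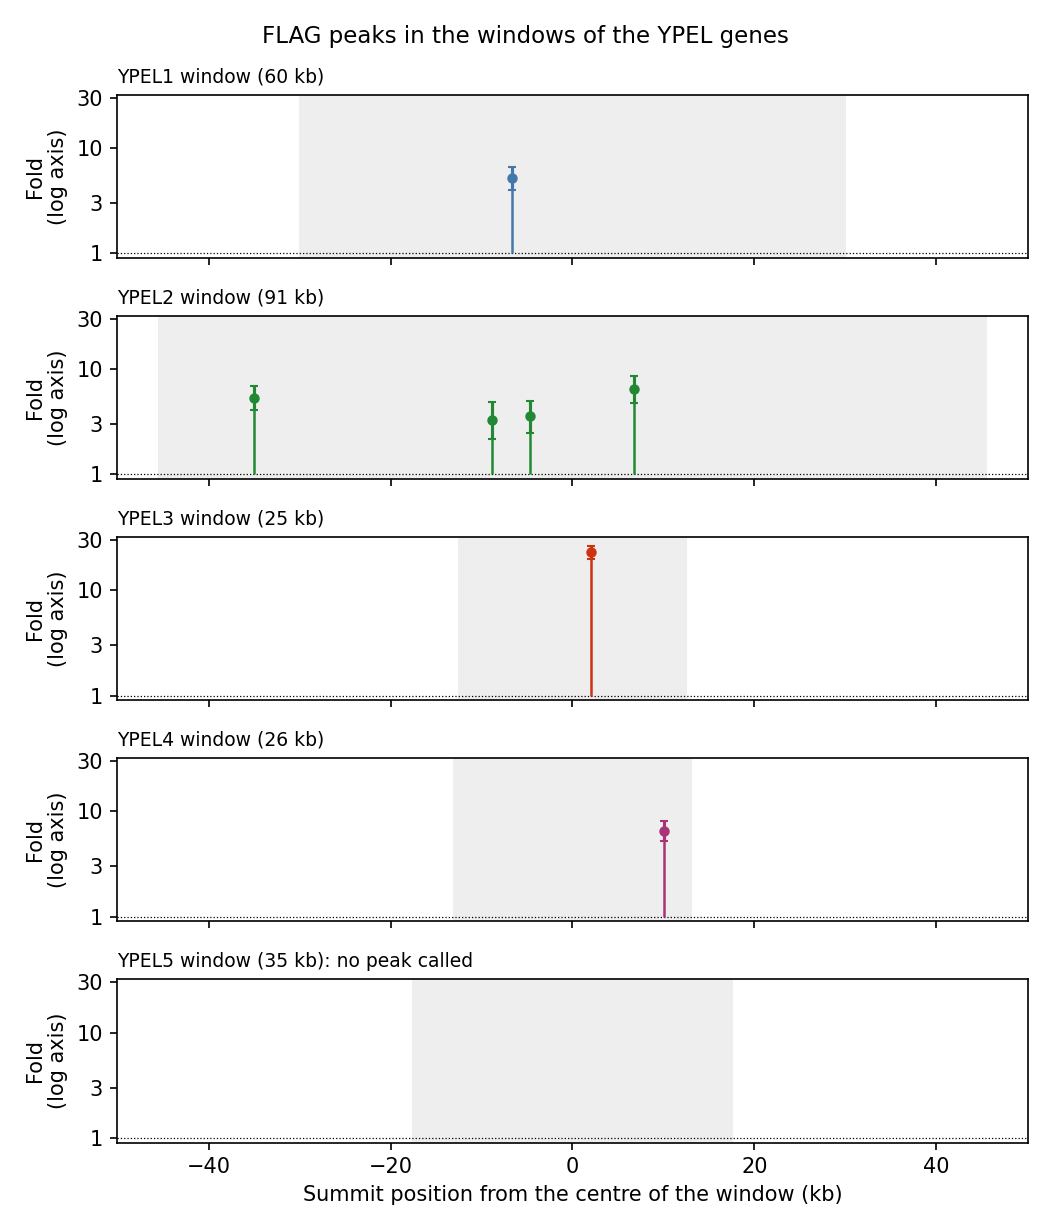
Fold enrichment (log axis) of each FLAG peak against the distance of its summit from the centre of the window in kb, for the 5 YPEL genes; grey marks the window and bars are exact 95% Poisson intervals of counting error. YPEL2 holds 4 peaks of fold 3.32 to 6.50, YPEL1, YPEL3 and YPEL4 hold 1 each, and YPEL5 holds none.

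YPEL5 had no called peak in its 35 kb window on chromosome 2, between 30359000 and 30394000. The nearest summits outside lay 617.8 kb before and 103.8 kb after the window. The latter peak, from 30497696 to 30497983, had a fold of 7.28, higher by point value than any YPEL peak but that of YPEL3. The smallest pileup called anywhere in the list was 13 tags, which over the lowest, genome-wide background of 3.65 tags is a fold of 3.01. Peaks of lower fold were called on higher backgrounds, down to a fold of 1.22, but none with fewer than 13 tags. The background at YPEL5 is not known from a list without a peak there, so the list does not show that enrichment is absent. RefSeq lists 4 pseudogenes of YPEL5, and the treatment of reads with several matching positions is not stated in the labels. Whether either bears on the YPEL5 window was not tested.

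**Figure D4:**
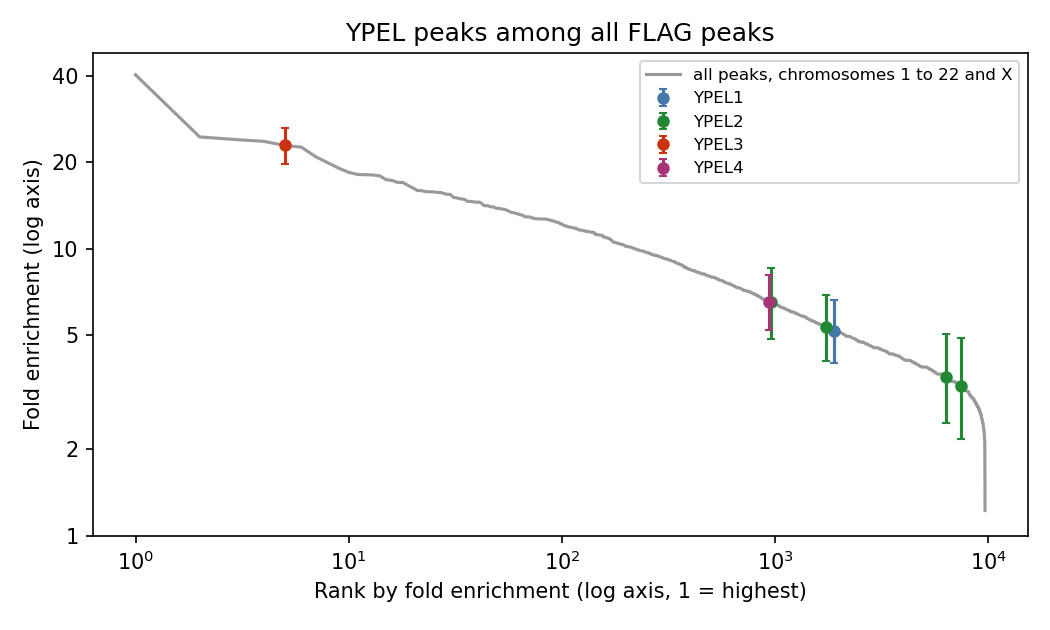
Fold enrichment (log axis) of all 9670 FLAG peaks on chromosomes 1 to 22 and X against their rank (log axis), with the 7 YPEL peaks in colour and exact 95% Poisson intervals as bars. YPEL3 is at rank 5, YPEL4 and the fourth peak of YPEL2 at ranks 937 and 960, and the weakest YPEL2 peak at rank 7426.

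In the comparison across the family, each peak is named after the window that holds its summit. Whether the YPEL4 peak lies nearer to the start of YPEL4 or of CLP1 was not measured. The fold of YPEL3 was 3.51 times that of YPEL4, 3.52 times that of the strongest YPEL2 peak and 4.42 times that of YPEL1. Its interval overlapped none of theirs. Below YPEL3 the order was YPEL4 at 6.53, the fourth peak of YPEL2 at 6.50, the first peak of YPEL2 at 5.34 and YPEL1 at 5.18. Neighbours in this order overlapped in their intervals, as did YPEL4 and YPEL1, so it is not resolved beyond counting error. By pileup the order changed, with 84 tags at YPEL4, 62 at YPEL1 and 58 and 48 at the first and the fourth peak of YPEL2. The backgrounds moved with it, from 12.0 at YPEL4 and 11.2 at YPEL1 to 6.54 at the fourth peak of YPEL2. All 7 YPEL peaks lay on backgrounds above the genome-wide level, at 1.79 to 3.29 times that level, as did most peaks of the list, since 19.2% of the 9670 were at it. Relative to the whole list, whose median fold was 3.88 and median pileup 25 tags, 5 of the 7 YPEL peaks were above both medians. The second YPEL2 peak was below both, and the third was below the median fold with a pileup of 31 tags. The share of the whole list above both medians was not computed, so nothing about the family is read from this count.

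Peaks were sparse enough over the genome that most windows of these lengths held none. In bins laid end to end between the outermost summits of each chromosome, at least 1 peak was found in 14.9% of bins of 60 kb, the length of the YPEL1 window. For the lengths of the YPEL2, YPEL3, YPEL4 and YPEL5 windows (91, 25, 26 and 35 kb) the shares were 20.6%, 7.04%, 7.29% and 9.45%. The bins include assembly gaps and stretches without genes, whereas the windows were placed on genes and chosen with the peaks known, so nothing about the family is read from this difference. All 4 YPEL genes with a peak kept at least 1 when a −log10 q of 10 or more was required, a level reached by 25.3% of the 9670 peaks. Bins with such a peak made up 4.66%, 6.89%, 2.01%, 2.10% and 2.79% at the lengths of the windows of YPEL1 to YPEL5 in order. At the length of the YPEL2 window, 0.776% of bins held 4 or more peaks and 0.711% held at least 2 with a −log10 q of 10 or more, as YPEL2 did. Both cutoffs are the counts of YPEL2 itself, in a window chosen with the peaks known. Nothing about YPEL2 is read from these shares, nor about the family from those at a −log10 q of 10 or more.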

How the data were processed

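The peak list of the FLAG library (1 sample, build hg19) was analysed. The input has no separate peak list here. Per the submitters' processing notes the tools were Trimmomatic, HISAT2 and MACS2. Versions, read filters, peak threshold, control and total read numbers are not stated in the labels. For each peak the deposited values are a fold enrichment (a ratio), a −log10 p-value, a −log10 q-value, a score and a summit offset from the authors' caller. The deposited score restates the −log10 q (multiplied by 10 and cut to a whole number). No listed peak had a −log10 q under 1.31.

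Pileup and background were solved from the deposited fold and −log10 p for a whole-number pileup (Python 3.11.15, scipy 1.17.1). All 9717 peaks returned the deposited −log10 p within 0.001. Tested on simulated data, 2000 of 2000 peaks were recovered, over a range that holds the YPEL peaks but not the largest pileups of the list. Intervals are exact 95% Poisson intervals of the pileup, for counting error only, with the background taken as known. Positions count from 1. Ranks use chromosomes 1 to 22 and X.

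Motif letters were searched in the RefSeq promoter table (GRCh38.p14), which held 4 of the 5 genes. No coordinates were converted between builds. Genes of the CTLH complex were not analysed, since their positions in hg19 were not used here. All 5 genes are named, with the peaks next to them in rank and position. Members, windows and lists were chosen with earlier results of these data known. No test was made. Alternatives were other thresholds on q and fold, overlap in place of summits, windows longer by 10 or 50 kb on each side, fold without the pseudocount, and other rankings.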

Additional observations from a re-analysis of the deposited data

How the results depend on the processing

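The number of YPEL genes with a peak was 4 under each alternative tried. Their peaks numbered 7, and 6 at a −log10 q of 5 or more, 5 at 10 or more and 5 at a fold of 5 or more. Of all 9670 peaks, 25.3% had a −log10 q of 10 or more and 22.1% a fold of 5 or more. The median −log10 q of the list was 5.63, so most peaks reached 5. Overlap in place of summits and windows longer by 10 or 50 kb left 7 peaks. The nearest summit outside any window was 103.8 kb away and the nearest inside was 2.94 kb from an edge. These settings therefore could not change the counts of peaks or genes, and their agreement carries no weight. Of 40 alternative values over 16 results, 33 stayed within 1.5 times (counts) or within the range that the Poisson interval allows, and 7 moved outside it. The 7 were all percentiles. Ranked by pileup in place of fold, YPEL1 moved from 80.5 to 93.3, the first YPEL2 peak from 82.0 to 92.2 and YPEL4 from 90.3 to 97.2. YPEL4 reached 95.85 by −log10 q. YPEL3 went from 99.95 to 99.9 by −log10 q, 99.7 by pileup and 99.5 within chromosome 16, where it ranked highest. Folds without the pseudocount were higher for all 7 peaks, up to 25.8 at YPEL3. With 1 library, differences between cultures are not covered by any interval. No listed peak had a pileup under 13 tags, and the part of depth or peak threshold in this limit was not tested.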

Other observations

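The forkhead letters of YPEL3 extend by another base to TTGTTTAC, a form searched only after the sequence was seen. These 8 letters occurred in 335 of 35116 promoters (0.954%). They covered the start base in 10 promoters (0.0285%), YPEL3 among them. TGTTTAC within 10 bases of the start was found in 118 promoters (0.336%). The counts by place relative to the start were not planned and follow the place of the YPEL3 match, so they are a description. Seen from YPEL3-DT, the same TGTTTAC lies at bases 223 to 217 before its start, on its own strand. No hypothesis on binding was tested with these letters.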
